A study of Mus musculus with 6 samples.

Results

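The bile-duct marker genes Krt7, Krt19, Krt23, Epcam, Sox9, Prom1, Cldn7 and Spp1 were followed in RNA-seq counts of mouse liver. The set was taken from a list of symbols and matched to the Ensembl identifiers of the count files, which gave 8 of 8 among 54232 genes. Livers of DKO mice, which lack FXR and, in the liver, also XBP1 (Fxr-/-Xbp1LKO), were set against livers of SKO mice, which lack FXR and carry intact floxed Xbp1 alleles (Fxr-/-Xbp1fl/fl). All were males on C57BL/6, fed chow and aged 8 to 10 weeks, with 3 libraries in each group. Both groups thus lack FXR, a nuclear receptor for bile acids (gene Nr1h4). XBP1 drives genes of the unfolded protein response as a transcription factor. The sources used here do not name the Cre driver behind the liver-specific deletion, and a group with intact FXR was not analysed here. Nothing in the labels ties each library to its own animal. The p-values below thus rest on library-to-library spread, part of which may be technical.

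Cholangiocytes line the bile ducts and form a small share of liver cells. They carry the simple-epithelial keratins of ducts, among them K7 and K19, and surface proteins such as EpCAM that normal adult hepatocytes largely lack. In cholestatic and other chronic injury, duct-like cells expand at the edge of the portal tract, which is called the ductular reaction, and injured hepatocytes can also take up some biliary genes such as Sox9 and Spp1. In whole-liver RNA, a change in the number of cells of a type and a change in the RNA per cell cannot be told apart.

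In DKO livers, 4 of the 8 genes rose (Prom1, Spp1, Krt19 and Epcam), 1 fell (Krt23), and 3 were not called (Cldn7, Sox9 and Krt7), at an edgeR adjusted p under 0.05. Over all 13986 genes tested, 20.0% were called, 10.3% higher and 9.70% lower in DKO. Of those calls 51.6% were higher, against 65.3% with upper-quartile factors and 87.7% with total counts only. All 3 DKO libraries lay above all 3 SKO libraries for 5 of the 8, Cldn7 being the fifth, and below them for 1, Krt23. Among all genes tested 20.2% lay wholly above and 19.4% wholly below. All 5 called genes differed by at least 2-fold, 4 of them higher, against 4.10% of all genes tested, and 1 lower, against 1.27%. Genes with low counts need a larger change to be called, and Cldn7, at 2.19-fold, was not called. Leaving out 1 library changed the count: edgeR called 2 of the 8 without SKO replicate 2 (Prom1 and Spp1) and 3 without SKO replicate 3 (Prom1, Spp1 and Krt23). Every fit without 1 library also called fewer of all genes tested, fewest without SKO replicate 2. The median log2 fold change of the 8 was 1.18, beside 0.006 over all genes tested. Fold changes are DKO over SKO, and levels are counts-per-million normalised with TMM factors (CPM). Library totals were 18382107 to 21107674 counts in DKO and 16966422 to 20211285 in SKO, and every one of the 8 genes was counted in every library, the lowest count being 8 for Cldn7 in SKO replicate 2. At these depths 3 counts, the floor set here for a count of 0, correspond to 0.126 to 0.191 CPM, for counting error only. Xbp1 counts were lower in each DKO library (77.0 ± 16.2 CPM) than in any SKO library (246 ± 18.9 CPM; SD, n = 3 each), and Nr1h4 counts were 97.3 ± 3.34 CPM in DKO and 98.4 ± 5.93 CPM in SKO, so that counts over the whole Nr1h4 gene do not check the FXR label. DKO replicate 1 was the highest of the 6 libraries for 7 of the 8 duct genes, all but Krt23, against 26.6% of all genes tested. These 7 all had a positive log2 fold change, whereas 6871 of the 13986 genes tested had a negative one. The 26.6% is thus not a matched share for genes higher in DKO. For the 7 genes, DKO replicate 1 stood at 1.36 (Krt7) to 2.26 (Sox9) times the mean of the other 2 DKO libraries.

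**Figure D1:**
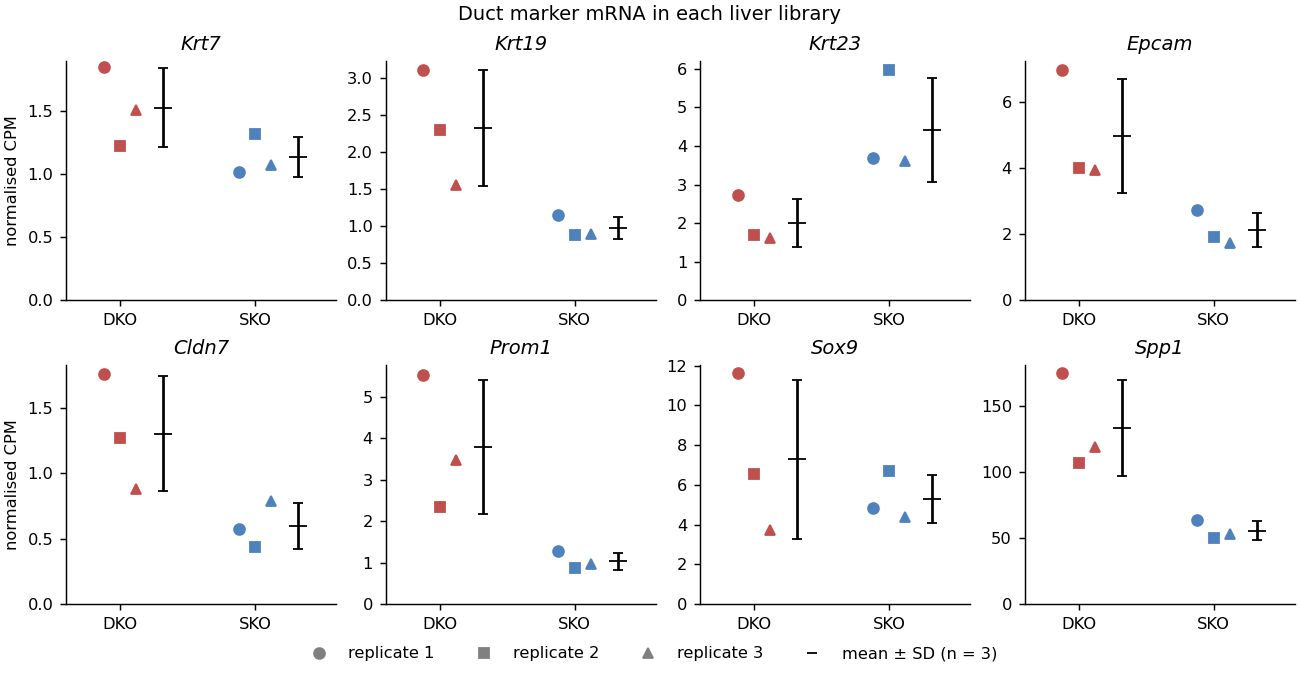
Normalised CPM of the 8 duct marker genes in each library, DKO on the left and SKO on the right of each panel, with one symbol per library and the mean ± SD of 3 libraries beside it; the axes start at 0 and differ between panels. Prom1, Spp1, Krt19, Epcam and Cldn7 do not overlap between groups, Krt23 lies lower in all 3 DKO libraries, and Krt7 and Sox9 overlap.

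Start-site sequences are shown for the gene that fell, Krt23, and for 3 that rose, Epcam, Spp1 and Prom1, so that the letters searched can be read beside the values that follow. They are RefSeq windows of GRCm38.p6, 250 bases before to 50 after a start site, written 5′ to 3′ on the gene's strand, and 6 of the 8 genes were matched. Capitals mark matches, on either strand, to the letters GTGGGAA (RBPJ, the DNA-binding factor of Notch signalling), GGAATG (TEAD factors), ACAATG (SOX factors), GACGTGG (the unfolded protein response element) and CCACG (part of the ER stress element, which ATF6 and XBP1 read). The windows lie at chr11:99493071-99493370, minus strand (Krt23), chr17:87635729-87636028, plus strand (Epcam), chr5:104434861-104435160, plus strand (Spp1) and chr5:44101687-44101986, minus strand (Prom1).
Krt23: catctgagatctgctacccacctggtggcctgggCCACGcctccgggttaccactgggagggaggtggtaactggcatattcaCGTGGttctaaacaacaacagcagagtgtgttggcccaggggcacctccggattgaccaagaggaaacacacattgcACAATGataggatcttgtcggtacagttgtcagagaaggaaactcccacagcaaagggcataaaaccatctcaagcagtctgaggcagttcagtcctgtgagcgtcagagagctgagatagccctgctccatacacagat
Epcam: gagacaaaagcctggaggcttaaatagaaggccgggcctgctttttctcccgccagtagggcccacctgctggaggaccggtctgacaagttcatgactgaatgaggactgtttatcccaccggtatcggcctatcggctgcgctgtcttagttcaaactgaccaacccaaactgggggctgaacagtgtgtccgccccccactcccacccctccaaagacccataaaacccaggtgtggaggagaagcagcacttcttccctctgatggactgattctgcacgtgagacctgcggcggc
Spp1: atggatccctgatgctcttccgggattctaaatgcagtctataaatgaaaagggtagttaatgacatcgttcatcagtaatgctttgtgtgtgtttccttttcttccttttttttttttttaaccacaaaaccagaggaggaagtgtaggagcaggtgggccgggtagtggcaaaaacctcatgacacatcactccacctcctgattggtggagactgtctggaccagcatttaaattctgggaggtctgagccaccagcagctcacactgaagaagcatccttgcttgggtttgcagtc
Prom1: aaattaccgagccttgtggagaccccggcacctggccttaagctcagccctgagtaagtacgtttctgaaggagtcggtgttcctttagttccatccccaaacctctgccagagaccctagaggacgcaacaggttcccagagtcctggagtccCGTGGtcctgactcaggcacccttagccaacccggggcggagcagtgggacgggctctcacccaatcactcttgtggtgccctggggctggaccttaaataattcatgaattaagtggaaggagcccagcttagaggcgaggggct

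The Krt23 window held 3 matches, 1 to ACAATG and 2 to CCACG, the Prom1 window held 1 to CCACG, and the Epcam and Spp1 windows held none. Of 32851 windows of the same length, 32.8% hold CCACG, 12.6% ACAATG, 14.7% GGAATG, 6.38% GTGGGAA and 2.42% GACGTGG. Every GACGTGG holds CCACG on its other strand, so these motifs overlap, and none of the CCACG matches printed here lies in a GACGTGG. A match is a description of letters in the window, and a window without one says only that these letters are not in it. Prom1 and Spp1 each have another start site in the table, for which no sequence is shown.

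The 3 keratins did not move together. Keratins are paired intermediate-filament proteins of epithelial cells: K7 is a type II keratin, and K19 and K23 are type I. Krt19 (ENSMUSG00000020911, chromosome 11, 100140810 to 100148665 in mm10) had 3.11, 2.29 and 1.56 CPM in DKO replicates 1 to 3, against 1.14, 0.877 and 0.901 CPM in the SKO libraries. The lowest DKO library was above the highest SKO library. Krt19 rose 2.40-fold (log2 1.26 ± 0.31 SE, 95% interval 0.57 to 1.96, edgeR adjusted p = 0.0191). These values rest on 30 to 74 counts in DKO and 16 to 18 in SKO. The call was lost without DKO replicate 1 (log2 0.99, edgeR adjusted p = 0.0519), without SKO replicate 2 (edgeR adjusted p = 0.0735) and without SKO replicate 3 (edgeR adjusted p = 0.066).

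Krt23 (ENSMUSG00000006777, chromosome 11, 99477974 to 99493137) went the other way. Keratin 23 is known in mouse liver as a keratin induced by stress and found in ductular reactions. Its levels were 2.73, 1.71 and 1.61 CPM in the DKO libraries, against 3.68, 5.97 and 3.60 CPM in the SKO libraries. Every DKO library lay below every SKO library, and SKO replicate 2 was the highest of the 6. Krt23 fell 2.18-fold (log2 -1.12 ± 0.28, 95% interval -1.74 to -0.50, edgeR adjusted p = 0.0205). The call was lost without DKO replicate 3 (log2 -0.99, edgeR adjusted p = 0.0713) and without SKO replicate 2 (log2 -0.85, edgeR adjusted p = 0.088). Without DKO replicate 1 the log2 fold change was -1.42 (edgeR adjusted p = 0.00772).

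Krt7 (ENSMUSG00000023039, chromosome 15, 101411043 to 101430313) was counted at 1.85, 1.22 and 1.503 CPM in DKO, against 1.02, 1.32 and 1.07 CPM in SKO. The groups overlapped, since DKO replicate 2 was below SKO replicate 2. The log2 fold change was 0.43 ± 0.27, with a 95% interval of -0.18 to 1.03 (edgeR adjusted p = 0.301). An antisense gene, Gm671, overlaps Krt7, and the sources used here do not say whether counting used the strand.

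The 2 cell-contact genes had near-equal fold changes, and 1 of them was called. EpCAM is a homophilic adhesion protein of simple epithelia, and claudin-7 is a tight-junction protein that associates with it. Epcam (ENSMUSG00000045394, chromosome 17, 87635979 to 87651129) had 6.97, 4.003 and 3.94 CPM in the DKO libraries, against 2.73, 1.92 and 1.74 CPM in the SKO libraries. The groups did not overlap, and DKO replicate 1 was at 1.76 times the mean of DKO replicates 2 and 3. Epcam rose 2.36-fold (log2 1.24 ± 0.28, 95% interval 0.61 to 1.86, edgeR adjusted p = 0.0137). It kept its call without DKO replicate 1 (log2 0.91, edgeR adjusted p = 0.0258) and lost it without SKO replicate 2 (edgeR adjusted p = 0.0619) or SKO replicate 3 (edgeR adjusted p = 0.0574).

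Cldn7 (ENSMUSG00000018569, chromosome 11, 69964779 to 69967885) had 1.76, 1.27 and 0.881 CPM in DKO, against 0.572, 0.438 and 0.788 CPM in SKO. The groups did not overlap, by a narrow margin between DKO replicate 3 and SKO replicate 3. With 17 to 42 counts in DKO and 8 to 14 in SKO, the log2 fold change was 1.13 ± 0.37 (95% interval 0.32 to 1.94) and the edgeR adjusted p was 0.0538. Cldn7 passed the threshold with upper-quartile factors (edgeR adjusted p = 0.0464), without the filter on low counts (edgeR adjusted p = 0.0271) and without DKO replicate 3 (edgeR adjusted p = 0.0454). With total counts alone, where 31.4% of all genes were called, its edgeR adjusted p was 0.0261. It missed the threshold with DESeq2 (adjusted p = 0.0984), limma-voom (adjusted p = 0.0734) and DESeq2 size factors in edgeR (adjusted p = 0.054), and in the other 5 fits without 1 library (edgeR adjusted p up to 0.185; log2 0.84 and 0.171 without DKO replicate 1).

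Prom1 showed the widest difference of the 8. It encodes prominin-1 (CD133), a membrane protein of plasma-membrane protrusions that marks ductal and progenitor-like epithelial cells. Prom1 (ENSMUSG00000029086, chromosome 5, 43993620 to 44102032) had 5.54, 2.34 and 3.47 CPM in the DKO libraries, against 1.27, 0.877 and 0.957 CPM in the SKO libraries. Each DKO library was above every SKO library, and the SKO libraries rested on 16 to 20 counts each. Prom1 rose 3.69-fold (log2 1.88 ± 0.35, 95% interval 1.11 to 2.65, edgeR adjusted p = 0.0056). Its call held in each of the 6 fits that left out 1 library, where the log2 fold change was 1.49 to 2.13 and the edgeR adjusted p at most 0.0313. An antisense gene, Gm16401, and a noncoding transcript, Gm42716, overlap Prom1.

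Sox9, the transcription factor of biliary specification and of hepatocytes that take up biliary genes, was the most variable of the 8 in DKO. Sox9 (ENSMUSG00000000567, chromosome 11, 112782224 to 112787760) had 11.6, 6.54 and 3.73 CPM in DKO, against 4.83, 6.69 and 4.39 CPM in SKO. The highest and the lowest of the 6 libraries were both DKO, so that the SKO values lay inside the DKO range. The log2 fold change was 0.47 ± 0.41, with a 95% interval of -0.52 to 1.46 (edgeR adjusted p = 0.475). Without DKO replicate 1 it was -0.04 (edgeR adjusted p = 0.937), so the sign of the Sox9 difference rested on that library.

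Spp1 was by far the most abundant of the 8. It encodes osteopontin, a secreted phosphoprotein made in liver by cholangiocytes and also by macrophages and activated stellate cells. Spp1 (ENSMUSG00000029304, chromosome 5, 104435118 to 104441050) had 175, 107 and 119 CPM in the DKO libraries, against 63.6, 49.98 and 53.2 CPM in the SKO libraries. The groups did not overlap, and the counts were large, 2187 to 4170 in DKO and 912 to 1001 in SKO. Spp1 rose 2.41-fold (log2 1.27 ± 0.20, 95% interval 0.80 to 1.74, edgeR adjusted p = 0.00692). The call held in each of the 6 fits without 1 library, with log2 fold changes of 1.02 to 1.40 and an edgeR adjusted p of at most 0.0285. A gene of unconfirmed status, Gm42793, overlaps Spp1 on the same strand.

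**Figure D2:**
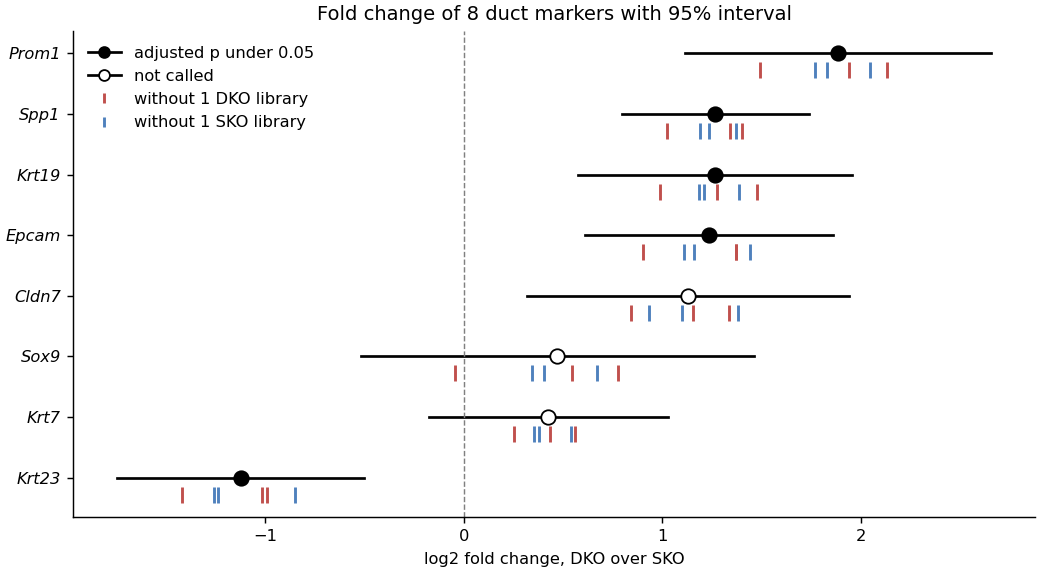
Log2 fold change, DKO over SKO, of each gene on the x axis, with its 95% interval as a line, filled where the edgeR adjusted p was under 0.05 and open where not; short ticks under each line are the estimates after leaving out 1 library, red for a DKO and blue for an SKO library. Prom1, Spp1, Krt19 and Epcam lie right of 0 in every fit shown, Krt23 left of it, and one tick of Sox9 crosses 0.

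On a per-length scale, normalised CPM per kilobase of merged exons, the level of Spp1 was 81.1 ± 22.1 in DKO and 33.7 ± 4.31 in SKO (SD, n = 3 each). The next level in DKO was that of Epcam, 2.26 ± 0.789, and the next in SKO was that of Krt23, 2.82 ± 0.860. Krt23 in DKO, at 1.29 ± 0.397, came after Epcam and Sox9 and close to Krt19 at 1.25 ± 0.419, and these neighbours did not differ beyond their spread. In SKO Krt19, at 0.525 ± 0.0795, lay below Krt23, Sox9 and Epcam (0.971 ± 0.240), and the mean ± SD ranges of Sox9 and Epcam overlapped. Sox9 was at 1.77 ± 0.968 in DKO and 1.28 ± 0.295 in SKO. Cldn7 followed Krt19 in both groups, at 0.670 ± 0.227 in DKO and 0.308 ± 0.0906 in SKO. Prom1, at 0.528 ± 0.226 in DKO and 0.144 ± 0.0290 in SKO, and Krt7, at 0.216 ± 0.0446 in DKO and 0.161 ± 0.0226 in SKO, were the lowest, and in SKO these 2 overlapped within their SD. Merged exons of Prom1 and Krt7 include several transcript forms, and dividing by the longest transcript instead gave Krt7 0.372 ± 0.0767 in DKO and 0.277 ± 0.0390 in SKO, and moved Krt19 above Krt23 in DKO.

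Counts of each gene relative to Krt19 in the same library do not depend on how libraries are scaled. This comparison was chosen after the values were seen. The log2 ratio of Krt23 to Krt19 was -0.19, -0.42 and 0.05 in the DKO libraries, against 1.66, 2.73 and 1.97 in the SKO libraries. The groups were far apart, with a mean difference in log2 ratio of -2.31, and the exact two-sided permutation test over the 6 libraries gave p = 0.1, the smallest it can give with 3 against 3. Adjusted over the 7 ratios (Benjamini-Hochberg) it was 0.35, so the design cannot call this difference. Krt19 lay higher and Krt23 lower in all 3 DKO libraries, so this ratio had to separate and its permutation p was fixed at 0.1. The ratio thus adds nothing to those 2 differences. The log2 ratio of Sox9 to Krt19 was 1.90, 1.502 and 1.25 in DKO, against 2.05, 2.89 and 2.25 in SKO, also without overlap (difference -0.85, exact permutation p = 0.1, adjusted 0.35). Sox9 itself was not called (log2 0.47, groups overlapping) and the denominator Krt19 rose, so the lower ratio is not a fall of Sox9. The ratios of the other 5 genes to Krt19 overlapped between groups. The mean difference in log2 ratio was 0.004 for Epcam, 0.06 for Spp1 and -0.12 for Cldn7, the smallest of the 7. For Krt7 it was -0.78 and for Prom1 0.59 (exact permutation p = 0.2 and 0.3).

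**Figure D3:**
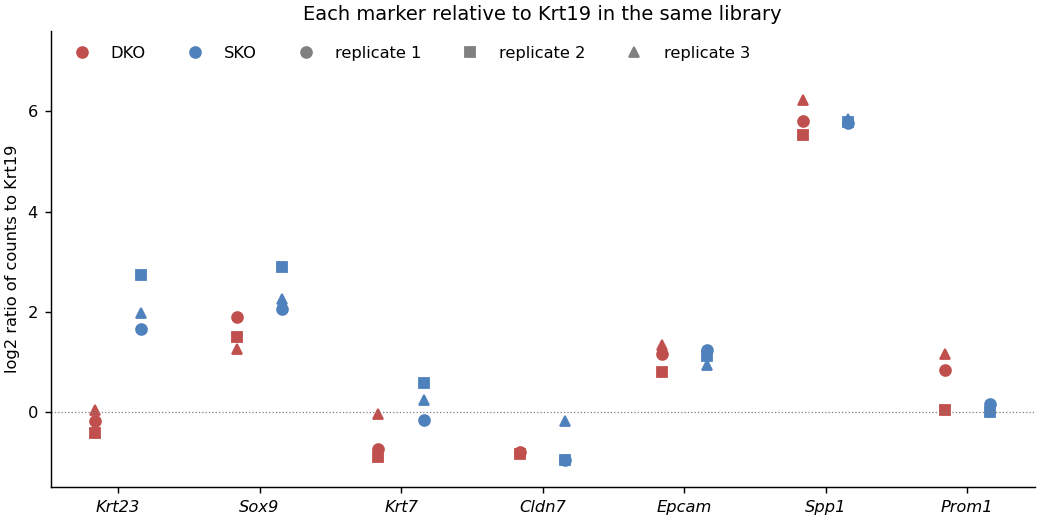
Log2 ratio of each gene's counts to those of Krt19 in the same library (y axis), DKO in red left of SKO in blue, with one symbol per library. Krt23 and Sox9 have lower ratios in all 3 DKO libraries than in any SKO library, and the ratios of Epcam, Spp1 and Cldn7 sit at like heights in both groups. Krt19 itself rose in DKO, and Sox9 was not called.

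For each of the 8, the genes whose profile over the 6 libraries came nearest were found by the root mean square difference of centred log2(CPM + 0.5), among genes averaging 1 CPM or more. The nearest to Spp1 were Tnfrsf12a (0.05) and Synpo (0.06), and the nearest to Epcam were Ddias (0.06) and Nedd9 (0.09). Krt19 was nearest to Dagla (0.07) and Plxdc2 (0.08), Prom1 to Tpx2 (0.09) and Lgals3 (0.10), Cldn7 to Snhg18 (0.06) and Spag5 (0.07), and Krt7 to Abi2 (0.04) and Sestd1 (0.05). Krt23 and Sox9 had no gene as near: the closest to Krt23 were Mid1ip1 (0.15) and Gm45724 (0.16), and the closest to Sox9 were Hes1 (0.17) and Plcd1 (0.23). Adding 0.5 narrows the profiles of genes near 1 CPM, such as Krt7, Krt19 and Cldn7, so distances are not directly comparable between the 8. These distances describe 6 libraries and carry no test.

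Among 22 other genes known from cholangiocytes, 19 passed the filter on low counts, and 10 of these rose in DKO and 9 were not called, beside 10.3% of all genes tested that rose. The median log2 fold change of the 19 was 0.79, and 16 of them were highest in DKO replicate 1. Tspan8, a tetraspanin of epithelia, stood at 2.72 ± 1.32 CPM in DKO and 0.711 ± 0.328 CPM in SKO (log2 1.96 ± 0.43, edgeR adjusted p = 0.0128). Bicc1, an RNA-binding protein of ciliated epithelia, stood at 10.5 ± 4.08 CPM in DKO and 4.96 ± 0.245 CPM in SKO (log2 1.08 ± 0.25, edgeR adjusted p = 0.0204), and Cd24a, a surface glycoprotein of ductal cells, at 6.31 ± 2.25 CPM in DKO and 2.47 ± 1.01 CPM in SKO (log2 1.37 ± 0.33, edgeR adjusted p = 0.0215). Of the 6 fits without 1 library, Tspan8 kept its call in 4, Bicc1 in 3 and Cd24a in 4. The edgeR adjusted p rose to 0.0614, 0.0809 and 0.0817 in turn. The other 7 that rose were Cdh1, Cldn4, Slc5a1, Elf3, Dcdc2a, Ehf and Mmp7, with log2 fold changes from 0.64 (Cdh1) to 3.84 (Mmp7). Mmp7, a matrix protease of injured bile-duct epithelium, had 84, 15 and 17 counts in DKO, against 5, 0 and 1 in SKO. Its log2 fold change was 2.72 without DKO replicate 1 and 5.69 without SKO replicate 1, and it kept its call in 2 of the 6 fits without 1 library, as Cdh1 did in 3. Without DKO replicate 1, Cldn4 was at log2 2.03 and kept its call. Without that library Cdh1, Slc5a1, Elf3, Dcdc2a and Ehf lost theirs, at log2 0.56, 0.85, 1.19, 0.52 and 0.79 (edgeR adjusted p = 0.0651, 0.0727, 0.105, 0.108 and 0.0864). The biliary transcription factor gene Onecut2 was not called, at log2 -0.10 ± 0.10 (95% interval -0.32 to 0.12), and neither was the water channel gene Aqp1 at log2 -0.02 ± 0.08 (-0.19 to 0.14). Both had high levels: Onecut2 121 ± 13.1 CPM in DKO and 130 ± 11.9 CPM in SKO, Aqp1 188 ± 7.51 and 191 ± 7.09 CPM. How much of these counts came from duct cells was not tested, so the values do not show that duct expression was unchanged. Onecut2 and Aqp1 turned to 0.12 and 0.20 with total counts. Without SKO replicate 2 edgeR called 0 of the 19 (10 at an unadjusted p under 0.05), and it called 5 without DKO replicate 1, 5 without SKO replicate 1 and 2 without SKO replicate 3. Fewer of all genes tested were also called in every fit without 1 library, fewest without SKO replicate 2. In the fit on all 6 libraries DESeq2 called 10 and limma-voom 8, without Ehf and Dcdc2a.

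**Figure D4:**
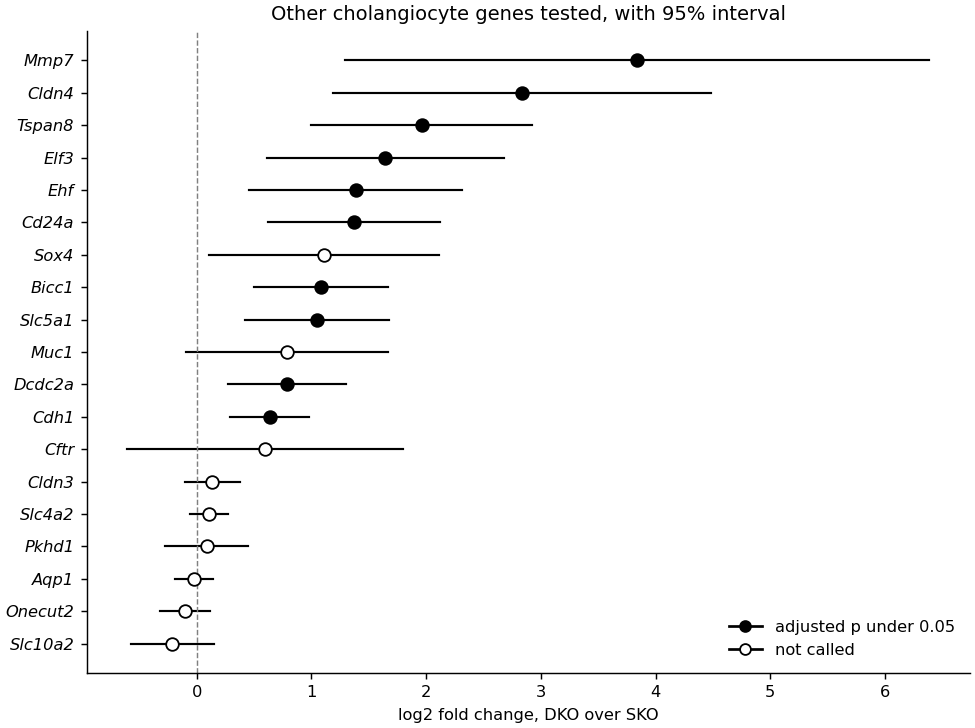
Log2 fold change, DKO over SKO, of the 19 other cholangiocyte genes tested, with 95% intervals; filled points had an edgeR adjusted p under 0.05 and open ones did not. The 10 called genes lie between 0.64 and 3.84, and genes such as Onecut2 and Aqp1 lie near 0 with narrow intervals.

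The keratin partners found in hepatocytes as well as ducts also rose. Krt8 was 184 ± 15.7 CPM in DKO and 112 ± 13.5 CPM in SKO (log2 0.72 ± 0.10, edgeR adjusted p = 0.00145), and Krt18 was 201 ± 32.04 CPM in DKO and 144 ± 19.3 CPM in SKO (log2 0.48 ± 0.13, edgeR adjusted p = 0.0319). Of the 6 fits without 1 library, those without DKO replicate 2 and without SKO replicate 2 kept the Krt18 call, and the other 4 lost it (edgeR adjusted p up to 0.0864). Krt8 kept its call in each fit without 1 library. Of 9 other keratin genes 3 were tested, and Krt15 had no count in any library. Of 13 other tight-junction genes, Cldn2 (log2 0.44 ± 0.09, edgeR adjusted p = 0.00873) and Cldn1 (log2 0.21 ± 0.07, edgeR adjusted p = 0.0469) rose and 11 were not called, beside 10.3% of all genes tested that rose. Cldn1 lost its call in each fit without 1 library, with DESeq2 (adjusted p = 0.131), limma-voom (adjusted p = 0.0568) and DESeq2 size factors in edgeR (adjusted p = 0.0522), and without the filter (edgeR adjusted p = 0.109).

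Of 15 Notch pathway genes tested, the pathway that specifies bile ducts in development, edgeR called 1, the endothelial ligand gene Dll4, which fell (log2 -0.62 ± 0.16, edgeR adjusted p = 0.0242). Over all genes tested 20.0% were called. At an unadjusted edgeR p under 0.05, 3 were higher and 1 lower, and DESeq2 and limma-voom also called only Dll4. The 3 were Notch1 (log2 0.34 ± 0.13), Hey1 (0.75 ± 0.31) and Heyl (0.75 ± 0.32). Their edgeR adjusted p-values were 0.0937, 0.118 and 0.126. With total counts 2 were called higher and Dll4 was not called (edgeR adjusted p = 0.0974). Dll4 also lost its call without DKO replicate 3, SKO replicate 2 or SKO replicate 3 (edgeR adjusted p up to 0.1). Jag1, the duct-forming Notch ligand, was at log2 0.03 ± 0.19, the receptor gene Notch2 at -0.08 ± 0.08, and the target gene Hes1 at 0.30 ± 0.29, none of them called. The Hes1 and Jag1 values turned to -0.06 and -0.20 without DKO replicate 1, and Notch2 to 0.14 with total counts.

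Of 9 tested genes for signals that drive ductular reactions, 3 rose and 1 fell. Over all genes tested 10.3% rose and 9.70% fell. Tnfrsf12a, the receptor (Fn14) for the duct mitogen TWEAK, was 19.02 ± 6.32 CPM in DKO and 7.64 ± 0.974 CPM in SKO (log2 1.32 ± 0.24, edgeR adjusted p = 0.00836). Met, the receptor for hepatocyte growth factor, fell to 92.7 ± 5.49 CPM in DKO, against 139 ± 20.95 CPM in SKO (log2 -0.59 ± 0.11, edgeR adjusted p = 0.00567). Tgfb3 (log2 1.03 ± 0.26) and Hgf, the ligand of Met (log2 0.45 ± 0.13), were called higher, and each kept its call in 1 of the 6 fits without 1 library. Hgf was not called by limma-voom. Areg, an EGF receptor ligand, was not tested, with 23 counts over the 3 DKO libraries (14, 5 and 4) and 0 over the 3 SKO libraries. With a floor of 3 counts set for the SKO group, its level was 6.24-fold higher in DKO. That value takes the DKO counts as exact, so it is not a lower bound. Among 9 genes for osteopontin receptors, integrin subunits and Cd44, 3 rose and 6 were not called: Itga8 (log2 1.02 ± 0.12), Itga5 (log2 0.58 ± 0.10) and Itgb5 (log2 0.34 ± 0.08), with edgeR adjusted p-values of 0.000528, 0.00455 and 0.0178. Itgb5 lost its call without DKO replicate 3, SKO replicate 2 or SKO replicate 3 (edgeR adjusted p up to 0.077).

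Markers of other cells that can express some of the 8 moved with them in part. The counts that follow stand beside 10.3% of all genes tested that rose and 9.70% that fell. Of 14 macrophage markers 9 rose (14 by DESeq2 and 9 by limma-voom), with a summed level of 653 to 1020 CPM in DKO and 468 to 580 CPM in SKO, and none was at 0 in any library. The 5 that edgeR did not call were Csf1r, Clec4f, Vsig4, Timd4 and Cd5l, at log2 0.40 to 0.57. Cd5l, the highest of the list by mean CPM in DKO, was 213 ± 56.4 CPM in DKO and 144 ± 13.7 CPM in SKO. Clec4f was at 201 ± 29.4 CPM in DKO and 152 ± 20.0 CPM in SKO. Trem2, a marker of lipid-associated macrophages, which make Spp1, was 6.43 ± 1.89 CPM in DKO and 1.06 ± 0.340 CPM in SKO (log2 2.58 ± 0.30, edgeR adjusted p = 0.000467), and Gpnmb and Cd9 also rose (log2 4.73 ± 0.36 and 1.36 ± 0.12). Of 10 stellate cell and fibroblast markers 7 rose and 3 were not called (3 rose without SKO replicate 2), summing to 666 to 956 CPM in DKO and 409 to 465 CPM in SKO, among them Dcn (log2 0.69 ± 0.10), Rgs5 (log2 0.60 ± 0.09) and Pdgfra (log2 1.16 ± 0.20). The 3 not called were Lrat (log2 0.85 ± 0.35), Reln (log2 0.64 ± 0.20) and the myofibroblast marker Acta2 (log2 0.19 ± 0.47, 95% interval -0.92 to 1.29). All 10 stellate cell and fibroblast markers were highest in DKO replicate 1, as were 13 of the 14 macrophage markers. The part of these cells in the Spp1 difference was not tested. Mesothelial cells, which carry Krt7 and Krt19, had markers at 6.69 to 9.71 CPM summed in DKO and 7.37 to 14.3 CPM in SKO, edgeR called none of the 5 tested (0 at an unadjusted p under 0.05, and 0 by DESeq2 and by limma-voom), and none of 8 was at 0. Upk3b, the highest of them by mean CPM over all libraries, was at log2 -0.63 ± 0.30 and Gpm6a at -0.06 ± 0.30.

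Of 9 pancreas and gut markers, the pancreatic genes Ctrb1, Cpa1, Pnlip and Cel had no count in any library, and Tff3 rose (log2 3.17 ± 0.19), Fabp2 fell (log2 -1.74 ± 0.10) and the other 3 tested, Cela1, Vil1 and Lgals4, were not called. The summed level of this list was 80.8 to 96.9 CPM in DKO and 131 to 140 CPM in SKO, of which Fabp2 alone made up 20.6 ± 2.77 CPM in DKO and 68.8 ± 4.21 CPM in SKO. Hepatocyte markers summed to 62361 to 74473 CPM in DKO and 83433 to 111760 CPM in SKO, with 3 of 8 lower, among them Alb (log2 -0.89 ± 0.19) and Apoa1 (log2 -0.78 ± 0.18), and 1, Cyp3a11, higher (log2 0.65 ± 0.15). Alb alone made up 35758 ± 5177 CPM of the sum in DKO and 66408 ± 11815 CPM in SKO. The other 4 were not called: Hnf4a (log2 0.11 ± 0.13), Asgr1 (-0.05 ± 0.09), Cps1 (-0.24 ± 0.16) and Tat (0.59 ± 0.38). Without SKO replicate 2 Alb, Apoa1 and Cyp3a11 lost their calls (edgeR adjusted p = 0.0503, 0.0749 and 0.0793). Of 6 other leukocyte markers edgeR and limma-voom called none and DESeq2 1 (1 at an unadjusted p under 0.05), the most abundant being Ptprc (log2 0.64 ± 0.21) and S100a9 (log2 0.32 ± 0.46). Of 7 endothelial markers 1 rose, Vwf (log2 0.41 ± 0.12), which kept its call in 1 of the 6 fits without 1 library and was not called by DESeq2. Over all genes tested, 10.3% were called higher and 9.70% lower. Of 4 hepatoblast genes 3 were tested: Igf2bp3 (log2 2.53 ± 0.30) and Afp (log2 1.35 ± 0.16) rose and kept their calls in each fit without 1 library, and Gpc3 was not called (edgeR adjusted p = 0.662).

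**Figure D5:**
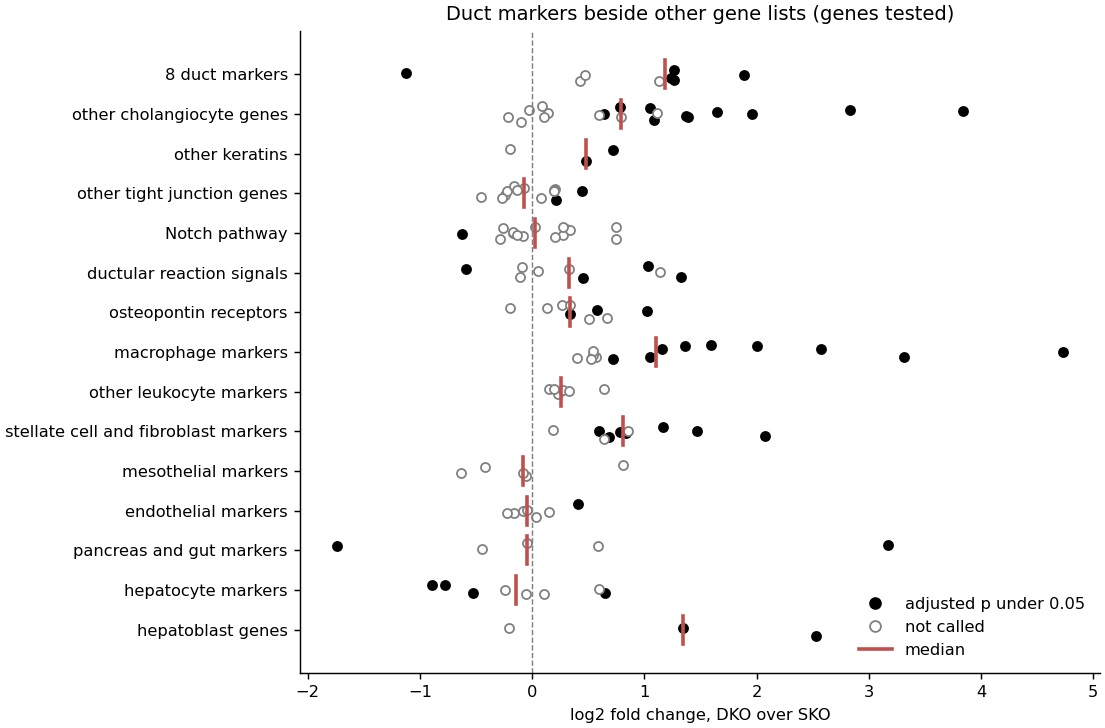
Log2 fold change, DKO over SKO, of every tested gene of the 8 duct markers and of 14 other lists, one list per line, filled where the edgeR adjusted p was under 0.05; red bars are medians and vertical jitter has no meaning. The duct, macrophage and stellate lines lie mostly right of 0 and the Notch, mesothelial and endothelial medians near it.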

How the data were processed

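Liver RNA was sequenced in 6 libraries, 3 DKO and 3 SKO. The authors deposited raw read counts per Ensembl gene, 1 file for each library. STAR, HTSeq 0.6.1p1, cutadapt 1.13 and DESeq2 on mm10 appear in the submitters' processing notes, without settings. Counting by gene can drop or divide reads of near-identical or overlapping genes. Symbols, coordinates and exon lengths came from GENCODE M21, also on the mm10 assembly, in which 54165 of 54232 identifiers matched. Genotype labels gave the groups; replicate numbers follow accession order. Titles of 3 DKO libraries and 1 SKO library carry a pair of numbers whose meaning is not given.

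Counts were filtered with filterByExpr and fitted by quasi-likelihood (robust glmQLFit, glmQLFTest, TMM factors) in edgeR 4.0.16 under R 4.3.3, with 4 residual degrees of freedom and a median biological coefficient of variation of 0.109. The Benjamini-Hochberg adjustment ran over all 13986 tested genes, also where only the duct genes are printed. The SE is the log2 fold change divided by the square root of F, and intervals use the moderated t distribution. Alternatives were DESeq2 1.42.0, limma-voom (limma 3.58.1), other scalings, no filter and leaving out each library. The fit was tested on simulated data.

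Chi-square per degree of freedom between libraries of a group was 11.1 to 32.4, so none appeared to be deposited more than 1 time. The 8 genes and the 14 other lists were chosen with earlier results of these data known, and 1 gene of the lists is not reported here. From each list the rule named the called genes with the 3 smallest p-values or, where nothing was called, the top 2 by mean CPM, 32 genes in all. After their values were seen, 13 more were named (Cdh1, Cldn4, Slc5a1, Elf3, Dcdc2a, Ehf, Mmp7, Onecut2, Aqp1, Jag1, Notch2, Hes1 and Hgf). So were Krt15, Notch1, Hey1, Heyl, Areg, Cela1, Vil1, Lgals4, Gpc3 and the pancreatic genes at 0. The uncalled macrophage, stellate cell and hepatocyte markers given above were also named after their values were seen. Count ratios to Krt19 use log2 of counts plus 0.5.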

Additional observations from a re-analysis of the deposited data

How the results depend on the processing

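Total counts alone moved the median of all genes to 0.23 on the log2 scale, against 0.006 with TMM factors, and gave 4387 calls against 2803, with 87.7% against 51.6% of calls higher; upper-quartile factors gave 65.3%. Fits without 1 library called 1419 to 2739 genes (1419 without SKO replicate 2, 1784 without SKO replicate 3 and 1831 without DKO replicate 3), 2 to 5 of the 8 duct genes and 0 to 12 of the other cholangiocyte genes. In those fits log2 fold changes ranged from 0.99 to 1.47 for Krt19, from -1.42 to -0.85 for Krt23, from 0.91 to 1.44 for Epcam, from 0.84 to 1.38 for Cldn7 and from -0.044 to 0.78 for Sox9. Cldn7 was called at log2 1.19 with upper-quartile factors, 1.35 with total counts and 1.13 without a filter. The calls of Prom1, Spp1, Krt19, Epcam and Krt23 kept their direction and significance with DESeq2, limma-voom, upper-quartile factors, DESeq2 size factors, total counts and no filter. Uncalled values changed sign with total counts for Onecut2 (0.12), Aqp1 (0.20), Notch2 (0.14) and Gpm6a (0.17), and with upper-quartile factors for Aqp1 (0.037) and Gpm6a (0.0056). Without 1 library they ranged from -0.20 to 0.14 for Jag1, from -0.060 to 0.51 for Hes1, from -0.34 to 0.68 for S100a9, from -0.057 to 0.0059 for Aqp1 and from -0.39 to 0.16 for Gpm6a. The cause was not tested. Of the 36 named genes outside the 8 that were called, 16 were called in every fit without 1 library and 20 were not. No paired analysis was possible because the labels give no replicate numbers and tie no DKO library to an SKO library. Low counts, 8 to 74 per library for Krt7, Krt19 and Cldn7, limit the precision of those genes.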
